A study of Mus musculus with 38 samples.

Results

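Naive pluripotency regulators are the transcription factors and partner proteins that keep mouse embryonic stem cells in the state of the early epiblast. The 10 followed here were Prdm14, Esrrb, Nanog, Klf2, Klf4, Klf5, Tbx3, Zfp42, Nr0b1 and Dppa3, taken by symbol from the 55385 genes of the deposited count table. All 10 had counts above 0, as did 22408 genes of the table in all, and all 10 passed the filter on low counts in every fit. All cells came from 129S6/SvEvTac mice and grew on gelatin in serum with leukaemia inhibitory factor (LIF), and 38 libraries of stranded total RNA were sequenced. In the first batch, 26 wild-type libraries formed 13 groups of 2: BRM014 at 10 uM for 30 min, 1 h, 3 h, 6 h or 24 h, an inactive analog at 10 uM for 1 h or 24 h, washout for 30 min or 1 h after 1 h of BRM014, washout for 6 h or 24 h after 24 h of BRM014, and DMSO, the solvent of both compounds, for 1 h or 24 h. In the second batch, 12 libraries formed 6 groups of 2: Ino80ko, Snf2hko and wild-type cells, each with 10 uM BRM014 or DMSO for 24 h. The labels name Ino80ko and Snf2hko only by genotype, with no clone and no deleted exon, give no dose for the washouts, and list no vehicle at 30 min, 3 h or 6 h and no vehicle that was washed out.

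BRM014 inhibits the ATPases BRG1 and BRM (Smarca4 and Smarca2), the motors of the SWI/SNF (BAF) chromatin remodelling complexes, which open nucleosomal DNA at enhancers for factors such as OCT4 and SOX2. Ino80 and Snf2h (Smarca5) are the motors of other remodellers, INO80 and ISWI. In mouse embryonic stem cells LIF acts through STAT3, which induces Klf4, and through other branches that sustain Tbx3. Nanog, Esrrb, Klf2, Klf5 and Prdm14 support self-renewal beside the core factors OCT4 and SOX2, whereas Zfp42, Nr0b1 and Dppa3 are best known as genes that mark the naive state or its earliest variants.

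The libraries held 19349695 to 23053021 counts in the first batch and 21948010 to 44453556 in the second, so the members other than Dppa3 rested on 314 or more counts in each library. Dppa3 was thin, with 35 to 508 counts. Of 12 embryonic stem cell markers, 11 had counts and summed to 5790 to 8410 CPM (counts scaled to library size with TMM factors) in each library, while Sox2 was listed at 0 throughout. These markers include the members Nanog, Zfp42 and Esrrb, so the sum is not independent of the members' values. It was lowest with BRM014 for 6 h (5790 to 5868 CPM) and in Snf2hko with BRM014 (5852 to 5986 CPM). Ino80 had 127.7 and 122.1 CPM in Ino80ko with DMSO, against 174.5 and 175.5 CPM in wild type with DMSO, but Snf2hko with DMSO lay at 130.1 and 124.8 CPM, so its level did not set Ino80ko apart. Smarca5, the gene of Snf2h, was listed at 0 in all 38 libraries, as was Smarca4, and so could not check the Snf2hko label. Smarca2, the other target of BRM014, differed between the lines with DMSO. It had 46.93 and 45.25 CPM in Snf2hko and 4.308 and 4.424 CPM in Ino80ko, against 10.7 and 11.17 CPM in wild type. Its part in the responses of the lines to BRM014 was not tested. The sources call the replicates biological without tying them to cultures or days, and p-values therefore measure the spread among these libraries, which may be technical.

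Coordinates on GRCm38 (the build of the submitters' notes) place the genes on 8 chromosomes. Prdm14 (ENSMUSG00000042414) lies at chr1:13113457-13127163 on the minus strand, Esrrb (ENSMUSG00000021255) at chr12:86361117-86521628 on the plus strand, and Klf2 (ENSMUSG00000055148) at chr8:72319033-72321656 on the plus strand. Klf4 (ENSMUSG00000003032) lies at chr4:55527143-55532466 (minus), Klf5 (ENSMUSG00000005148) at chr14:99298691-99315036 (plus) and Tbx3 (ENSMUSG00000018604) at chr5:119670669-119684724 (plus). Zfp42 (ENSMUSG00000051176) lies at chr8:43295063-43306980 (minus) and Nr0b1 (ENSMUSG00000025056) at chrX:86191764-86195947 (plus). Nanog (ENSMUSG00000012396, chr6:122707489-122714633, plus) and Dppa3 (ENSMUSG00000046323, chr6:122626410-122630272, plus) lie near each other on chromosome 6. Values are counts over the exons of each gene.

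Expressed per length of exons, the 10 regulators spanned a wide range in cells given DMSO for 1 h. Zfp42 led at 259.4 ± 1.28 CPM per kb, followed by Nanog at 197.8 ± 1.78 CPM per kb (SD, n = 2 each). Klf4, Nr0b1 and Esrrb came next at 80.7, 79.6 and 79.3 CPM per kb and overlapped in their libraries. Klf2 at 72.2 and Klf5 at 69.01 CPM per kb lay just below, and their libraries met at 70.7 CPM per kb, the lowest for Klf2 and the highest for Klf5. Tbx3 (18.2), Prdm14 (15.9) and Dppa3 (4.13 CPM per kb) were the low members. In bulk RNA, fewer cells that express a gene and less RNA per cell cannot be told apart.

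Promoter windows from RefSeq on GRCm38.p6, 250 bases before to 50 after a gene's start, matched 6 of the 10 members in 8 windows: Esrrb, Nanog, Klf2, Klf4, Zfp42 and Nr0b1, with no entry for Prdm14, Klf5, Tbx3 and Dppa3. Both strands were searched, over windows of 300 bases, for TCAAGGTCA (an ESRRB site), TTCNNNGAA (a STAT3 site), GGGNGTGG (a KLF site) and ATGCAAAT (the OCT4 octamer), which occurred in 0.423%, 8.3%, 17.6% and 1.74% of all 32851 windows. The windows with a match are shown 5′ to 3′ on the strand of the gene, with the matches in capitals. They place letters that match sites of factors in the regulators' own network beside the start sites. They are a window of Esrrb on chr12:86360867-86361166 (plus strand), one of Nanog on chr6:122707239-122707538 (plus strand) and that of Zfp42 on chr8:43306960-43307259 (minus strand).
Esrrb: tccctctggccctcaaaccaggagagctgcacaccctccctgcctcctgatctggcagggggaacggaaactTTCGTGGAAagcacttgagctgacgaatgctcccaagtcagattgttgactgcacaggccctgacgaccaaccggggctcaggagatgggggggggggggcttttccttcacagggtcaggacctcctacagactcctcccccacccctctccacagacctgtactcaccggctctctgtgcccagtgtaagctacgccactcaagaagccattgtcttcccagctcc
Nanog: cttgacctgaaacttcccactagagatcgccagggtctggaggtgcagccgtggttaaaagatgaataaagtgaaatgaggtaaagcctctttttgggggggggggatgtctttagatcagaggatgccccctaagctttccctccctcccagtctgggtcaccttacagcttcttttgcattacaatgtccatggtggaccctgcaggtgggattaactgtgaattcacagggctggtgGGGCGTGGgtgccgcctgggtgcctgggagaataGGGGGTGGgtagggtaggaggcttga
Zfp42: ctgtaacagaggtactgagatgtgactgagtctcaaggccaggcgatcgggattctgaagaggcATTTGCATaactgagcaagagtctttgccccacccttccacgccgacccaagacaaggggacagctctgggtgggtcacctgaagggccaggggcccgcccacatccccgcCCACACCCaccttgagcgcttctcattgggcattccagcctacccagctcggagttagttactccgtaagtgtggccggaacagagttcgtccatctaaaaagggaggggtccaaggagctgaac
The Esrrb window held TTCGTGGAA, a STAT3 match whose first base lay 178 bases before the start. The Nanog window held the KLF matches GGGCGTGG and GGGGGTGG, the first beginning 10 bases before the start and the other 25 bases after it, and a second Nanog window, from a later start, held the same 2 matches. The Zfp42 window held an octamer on the opposite strand, ATTTGCAT, and a KLF match on the opposite strand, CCACACCC. The windows of Klf2, Klf4 and Nr0b1 and the other window of Esrrb held none of the 4. A match is a description of letters, and binding was not measured in these libraries. Only the letters given were searched, so variants of a site are not marked, and a window without a match may hold them.

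With BRM014 the regulators did not fall together. Prdm14 was the first to pass the test, at 1 h. Esrrb, Klf5 and Tbx3 followed at 3 h, Zfp42 at 6 h and Nr0b1 at 24 h, while Nanog, Klf2 and Dppa3 passed as rises at 24 h. With the filter on low counts and all libraries of a batch in the fit, Klf4 passed at none of these times. The order is one of passing the test, read from fits with that filter. Without the filter Tbx3 already passed at 1 h, Klf2 as a rise at 3 h and Nr0b1 at 6 h. The tests also differed in size. They set 2 libraries against 2 at 1 h, and 2 against 4 of both vehicle times at 3 h and 6 h. At 24 h they set 4 against 4 over both batches, and within batches Nr0b1 passed in the first only. Nanog was also higher than DMSO with the inactive analog at 24 h. Fold changes and adjusted p-values below come from edgeR's quasi-likelihood test with Benjamini-Hochberg adjustment over all genes, with a call at an adjusted p under 0.05.

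**Figure D1:**
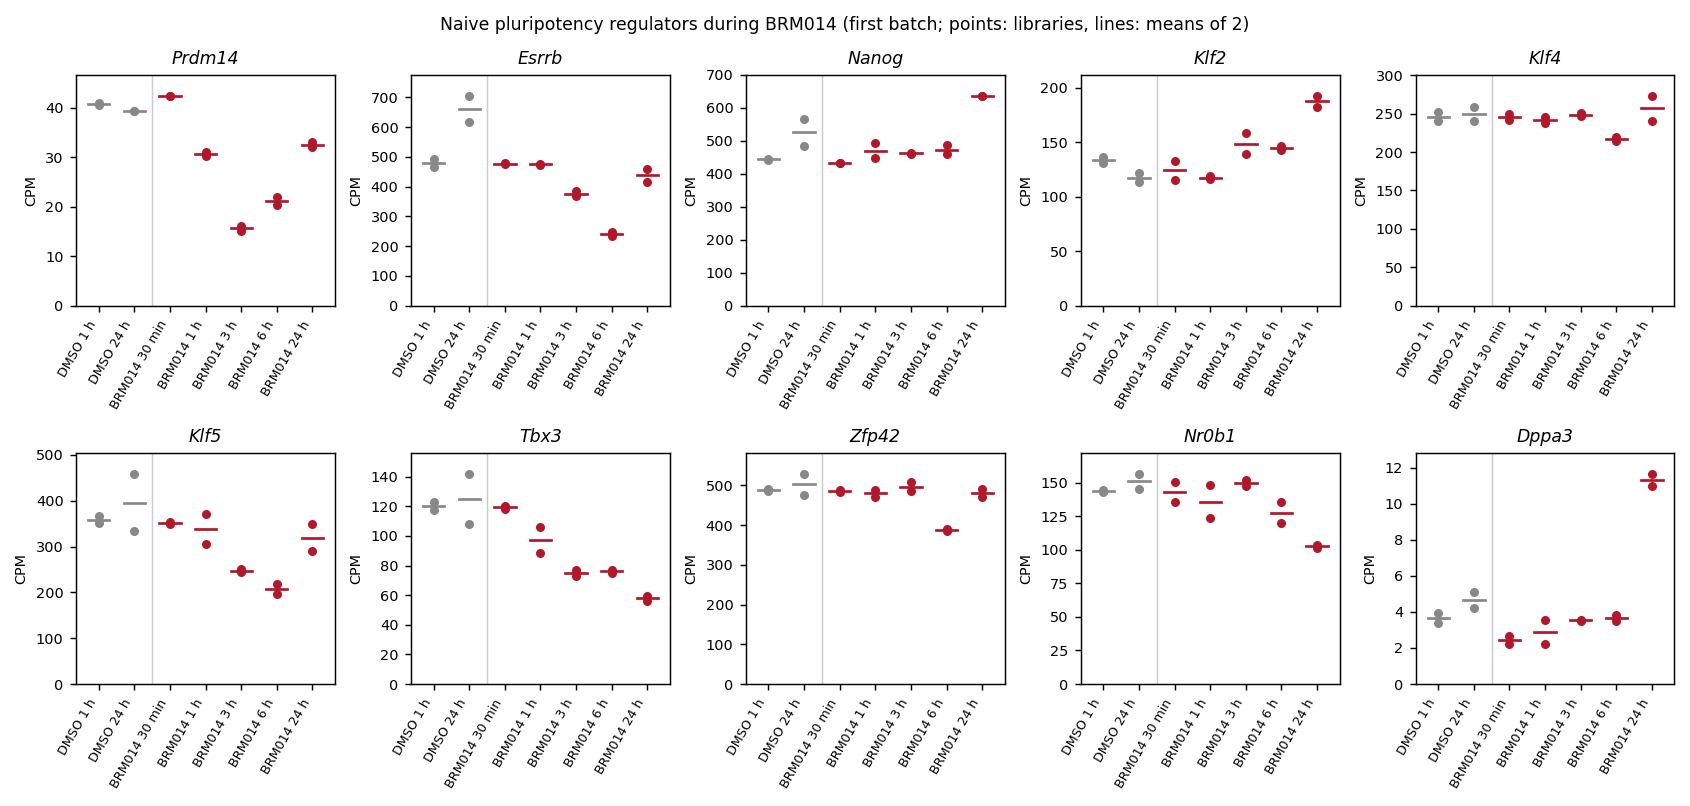
CPM of the 10 regulators in wild-type cells of the first batch with DMSO or with 10 uM BRM014 for increasing times (x axis), 2 libraries a group as points and their mean as a line; the y axis starts at 0. Prdm14 is lowest at 3 h (15.6 CPM), Esrrb at 6 h (241.6 CPM) and Tbx3 at 24 h (57.9 CPM), and Dppa3 stands highest at 24 h (11.3 CPM).

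Prdm14, a PR-domain protein that restrains FGF receptor signalling and DNA methyltransferases, had 40.5 and 40.9 CPM with DMSO for 1 h and 39.4 and 39.3 CPM with DMSO for 24 h. With BRM014 it had 42.4 and 42.5 CPM at 30 min, 30.3 and 31.1 at 1 h, 15.2 and 16.0 at 3 h, 20.3 and 21.9 at 6 h, and 32.1 and 33.0 at 24 h. All libraries from 1 h on lay below every vehicle library, and 3 h was the low point. At 1 h the log2 change against DMSO for 1 h was -0.41 (SE 0.079, adjusted p = 0.00668), a call lost without any 1 of the 4 libraries compared (adjusted p = 0.0735 to 0.165). At 3 h it was -1.36 (SE 0.077, adjusted p = 7.39e-14) against the mean of both vehicle times, which brought the level to 39.0% of that mean. At 6 h it was -0.90 (SE 0.073, adjusted p = 3.63e-11).

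Esrrb, an orphan nuclear receptor that binds many pluripotency enhancers, had 467.6 and 491.2 CPM with DMSO for 1 h and 618.1 and 705.9 CPM with DMSO for 24 h. With BRM014 it had 480.4 and 474.8 CPM at 30 min, 473.0 and 476.7 at 1 h, 368.2 and 383.7 at 3 h, 234.1 and 249.1 at 6 h, and 415.6 and 459.8 at 24 h. The first hour lay within the range of the 1 h vehicle, and the 3 h and 6 h libraries lay below all vehicles. The log2 change was -0.58 (SE 0.060, adjusted p = 1.6e-08) at 3 h and -1.20 (SE 0.062, adjusted p = 3.6e-15) at 6 h, where the level was 42.3% of the vehicle mean. The vehicle itself moved: Esrrb was 0.46 higher (log2, SE 0.068, adjusted p = 1.89e-05) with DMSO for 24 h than for 1 h.

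Klf5, a Krüppel-like factor that shares binding sites with Klf2 and Klf4, had 367.5 and 350.4 CPM with DMSO for 1 h and 333.1 and 458.7 CPM with DMSO for 24 h. With BRM014 it had 353.3 and 348.4 CPM at 30 min, 304.9 and 370.8 at 1 h, 245.0 and 250.5 at 3 h, 218.6 and 197.3 at 6 h, and 289.8 and 348.8 at 24 h. The 3 h and 6 h libraries lay below all vehicle libraries, whereas the 24 h libraries overlapped them. The log2 change was -0.60 (SE 0.131, adjusted p = 0.00237) at 3 h and -0.835 (SE 0.132, adjusted p = 8.52e-05) at 6 h.

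Tbx3, a T-box factor sustained by LIF, had 123.1 and 117.4 CPM with DMSO for 1 h and 108.0 and 141.9 CPM with DMSO for 24 h. With BRM014 it had 118.5 and 120.5 CPM at 30 min, 88.8 and 105.8 at 1 h, 76.8 and 72.8 at 3 h, 77.2 and 75.3 at 6 h, and 56.3 and 59.4 at 24 h. Both 1 h libraries already lay below the vehicle, at a log2 difference of -0.31 (SE 0.106) that did not pass the test (adjusted p = 0.281). Without the filter on low counts, the 1 h difference passed (-0.30, adjusted p = 0.0193). Tbx3 passed at 3 h with -0.71 (SE 0.095, adjusted p = 5.89e-06) and at 6 h with -0.66 (SE 0.095, adjusted p = 5.6e-06), and it alone of the early fallers was lower again at 24 h.

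The remaining 6 regulators did not pass before 6 h with the filter on low counts and all libraries in the fit, other than Nanog at 3 h against DMSO 24 h alone. Zfp42 (Rex1), a zinc finger protein widely used as a reporter of the naive state, had 485.9 and 507.5 CPM at 3 h of BRM014, 388.9 and 384.5 at 6 h and 490.1 and 471.1 at 24 h; its vehicle libraries spanned 475.5 to 528.8 CPM. Both 6 h libraries lay well below that span, with 1 library at 24 h just under it, and the 6 h log2 change was -0.33 (SE 0.052, adjusted p = 4.7e-06). Nr0b1 (Dax1), an orphan nuclear receptor that lacks a DNA-binding domain of the usual kind and binds OCT4, had 152.2 and 147.7 CPM at 3 h, 119.8 and 135.7 at 6 h and 101.3 and 103.9 at 24 h, against 143.1 to 156.8 CPM in the 4 vehicle libraries. Its 6 h log2 difference of -0.19 (95% interval -0.44 to 0.07) did not pass. Nanog, the homeodomain factor, stayed between 433.1 and 493.2 CPM in the 8 libraries of BRM014 up to 6 h, beside 440.6 to 566.2 CPM with DMSO; it passed only at 3 h and only against DMSO 24 h alone (-0.18, adjusted p = 0.0334). Klf2 ranged over 115.5 to 158.5 CPM and Klf4 over 214.9 to 250.6 CPM in the same libraries, and neither passed with the filter and all libraries in the fit; their 6 h intervals were -0.04 to 0.49 and -0.33 to -0.01. Klf2 had 158.5 and 138.9 CPM at 3 h and 146.3 and 142.6 CPM at 6 h, all above its vehicle libraries at 113.3 to 136.2 CPM. Without the filter on low counts, Klf2 passed at 3 h (0.255, adjusted p = 0.000839) and 6 h (0.23, adjusted p = 0.00215) and Klf4 at 6 h (-0.17, adjusted p = 0.02).

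Dppa3, at low counts, had 2.24 and 2.65 CPM at 30 min of BRM014, 3.57 and 2.21 at 1 h, 3.58 and 3.52 at 3 h and 3.48 and 3.83 at 6 h, against 3.41 and 3.96 CPM with DMSO for 1 h and 5.08 and 4.21 CPM with DMSO for 24 h. Both 30 min libraries lay below every vehicle library. The 30 min log2 difference was -0.60 (interval -1.04 to -0.15, adjusted p = 1).

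Set beside all genes, the members' early counts leaned to the lower side. The members were chosen with earlier results of these data known, so the lean only describes these genes. At 30 min 0 of 10 members and 0 of 12517 genes (0% in either direction) were called by edgeR, 0 genes by DESeq2, and 1 member, Dppa3, and 348 genes had an unadjusted p under 0.05. At 1 h 1 member was lower and 0 higher, where 0.383% of genes were lower and 0.216% higher. At 3 h 4 were lower and 0 higher, beside 15.7% and 15.5% of all genes, and the members' median log2 change was -0.14, against -0.01 over all genes. At 6 h 5 were lower and 0 higher, beside 23.5% and 24.9%, with a median of -0.26 against 0 over all genes. Dropping the filter on low counts or fitting only the libraries compared each raised the 6 h count to 8, in the second case with Klf2 at 0.21 (adjusted p = 0.00993), Klf4 at -0.19 (adjusted p = 0.0182) and Nr0b1 at -0.20 (adjusted p = 0.0233).

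The step between 3 h and 6 h, a comparison added after the data were seen, parted the early fallers. Prdm14 was higher at 6 h than at 3 h by 0.455 (log2, SE 0.088, adjusted p = 0.000377), whereas Esrrb was lower by a further -0.62 (SE 0.069, adjusted p = 1.59e-07) and Zfp42 by -0.34 (SE 0.059, adjusted p = 9.93e-05). Klf5 (-0.23, interval -0.55 to 0.09) and Tbx3 (0.05, interval -0.18 to 0.28) did not differ beyond their spread. These were 2 members lower and 1 higher, beside 11.3% and 10.3% of genes.

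Between 6 h and 24 h of continued BRM014, 6 members rose and 1 fell, beside 19.5% of genes that rose and 22.1% that fell. Dppa3 rose by 1.60 (log2, SE 0.181, adjusted p = 3.91e-08), Esrrb by 0.83 (SE 0.069, adjusted p = 1.07e-10) and Prdm14 by 0.60 (SE 0.083, adjusted p = 1.46e-06). Klf5 rose by 0.59 (adjusted p = 0.00486, or 0.0614 without BRM014 24 h replicate 2), Nanog by 0.40 and Zfp42 by 0.28, and Tbx3 fell by 0.43 (adjusted p = 0.00363). Nr0b1 (-0.35, adjusted p = 0.0568), Klf2 (0.345, adjusted p = 0.0663) and Klf4 (0.215, adjusted p = 0.055, or 0.0235 without BRM014 24 h replicate 1) lay just outside the threshold. All 3 passed without the filter on low counts (adjusted p = 1.4e-05 for Klf2, 0.00494 for Klf4 and 9.68e-05 for Nr0b1) and with only the libraries compared in the fit (8.2e-12, 8.44e-06 and 7.19e-08 in the same order). In the vehicle alone, 24 h against 1 h, 2 members rose and 0 fell beside 8.91% and 9.63% of genes; these were Esrrb and Nanog (0.24, adjusted p = 0.0115), and the call of Nanog was lost without DMSO 1 h replicate 1 or 2 or DMSO 24 h replicate 2 (adjusted p = 0.0625 to 0.284). With that vehicle change taken off, a step added after the data were seen, 4 members rose and 1 fell beside 13.1% and 13.6% of genes. Prdm14 kept 0.66 (adjusted p = 7.6e-05), Esrrb 0.37 (adjusted p = 0.00431), Dppa3 1.28 (adjusted p = 0.000691), Zfp42 0.25 (adjusted p = 0.0244) and Tbx3 -0.47 (adjusted p = 0.0256), whereas Klf5 (0.46, adjusted p = 0.123) and Nanog (0.16, adjusted p = 0.2) no longer passed.

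At 24 h the members were split between fall and rise. In the 8 wild-type libraries, fitted together with a term for batch, 4 were lower with BRM014 and 3 higher than with DMSO, beside 24.8% of 11787 genes in each direction, which is not far from the members' share in either direction. Tbx3 had 56.3, 59.4, 46.9 and 36.1 CPM with BRM014, against 108.0, 141.9, 86.4 and 88.7 CPM with DMSO, and every BRM014 library lay below every DMSO library. Its log2 change was -1.09 (SE 0.092, adjusted p = 1.16e-07). Esrrb had 415.6, 459.8, 495.9 and 465.6 CPM with BRM014, against 618.1, 705.9, 592.0 and 558.2 CPM with DMSO, again with no overlap (log2 -0.425, SE 0.076, adjusted p = 0.000239). Klf5 had a log2 change of -0.47 (SE 0.102, adjusted p = 0.0021) and Nr0b1 one of -0.355 (SE 0.088, adjusted p = 0.00344), with libraries that overlapped between the groups.

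Dppa3 (Stella), which protects maternal methylation in the zygote and is expressed in a part of naive cells, had 11.7, 10.97, 13.01 and 12.9 CPM with BRM014, against 5.08, 4.21, 9.21 and 7.94 CPM with DMSO. The groups did not overlap, and the log2 change was 0.90 (SE 0.139, adjusted p = 5.02e-05). Klf2 had 181.9, 192.7, 197.3 and 156.6 CPM with BRM014, against 113.3, 121.8, 116.1 and 122.2 CPM with DMSO (log2 0.62, SE 0.072, adjusted p = 1.99e-06). Nanog had 637.1, 636.9, 699.3 and 712.1 CPM with BRM014, against 485.3, 566.2, 576.3 and 560.0 CPM with DMSO (log2 0.30, SE 0.060, adjusted p = 0.000579). For both, all 4 BRM014 libraries lay above all 4 DMSO libraries. Prdm14 at -0.18 (adjusted p = 0.0589), Klf4 at -0.03 (interval -0.17 to 0.11) and Zfp42 at 0.02 (interval -0.11 to 0.15) did not pass. Without DMSO 24 h replicate 4, Prdm14 passed (adjusted p = 0.0216). Of the 3 that rose, Klf2 and Dppa3 were also higher with BRM014 than with the inactive analog in the first batch. Nanog was not (-0.02, interval -0.16 to 0.11), and the analog itself had Nanog 0.30 higher than DMSO.

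Within each batch the directions of the called members held. In the first batch 4 were lower and 3 higher, beside 23.2% and 22.6% of genes, and in the second 3 lower and 3 higher, beside 21.7% and 20.6%. Tbx3 was -1.11 in the first and -1.07 in the second, Esrrb -0.60 and -0.26, Klf2 0.67 and 0.57, Nanog 0.275 and 0.31, and Dppa3 1.28 and 0.59 (log2). Klf5 passed in the second batch alone (-0.63, adjusted p = 0.000562; first -0.31, adjusted p = 0.0978), and Nr0b1 (-0.56, adjusted p = 0.00319; second -0.16, adjusted p = 0.178) and Prdm14 (-0.275, adjusted p = 0.0059; second -0.10, adjusted p = 0.364) in the first. The term for a difference between the batches called 0 members, beside 1.48% of genes lower and 1.98% higher in the second batch; 3 members, Esrrb, Nr0b1 and Dppa3, had an unadjusted p under 0.05, and DESeq2 called 0 as well. That count was 2 without DMSO 24 h replicate 2 (Klf5 and Nr0b1) and 1 without DMSO 24 h replicate 1 (Esrrb) or BRM014 24 h replicate 4 (Nr0b1).

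The inactive analog was set beside BRM014 at the same 10 uM dose and the same 2 times, for each of the 10 members; the labels do not give the change in structure between the compounds. At 1 h 0 members differed between analog and DMSO, beside 0.128% of genes lower and 0.0559% higher, and 0 had an unadjusted p under 0.05. BRM014 against the analog at 1 h likewise called 0 members, beside 0.0879% lower and 0.0719% higher; Prdm14 differed by -0.27 (interval -0.44 to -0.11, adjusted p = 0.285) and Esrrb by -0.14 (interval -0.28 to -0.004), and these 2 had an unadjusted p under 0.05. DESeq2 called 0 in both.

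At 24 h the analog itself differed from DMSO in 4 members, 1 lower and 3 higher, beside 9.52% of genes lower and 8.91% higher. Nanog was 0.30 higher (log2, adjusted p = 0.00149), Dppa3 0.585 higher (adjusted p = 0.0251), Zfp42 0.22 higher (adjusted p = 0.00977) and Tbx3 had a change of -0.32 (adjusted p = 0.037). Of these, 2 passed without inactive 24 h replicate 1, 1 without inactive 24 h replicate 2 or DMSO 24 h replicate 2, and 0 when only the 4 libraries compared were fitted.

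BRM014 at 24 h differed from the analog in 7 members, 5 lower and 2 higher, beside 18.1% of genes lower and 17.3% higher. Tbx3 had 56.3 and 59.4 CPM with BRM014, against 102.3 and 97.1 CPM with the analog (log2 -0.79, SE 0.110, adjusted p = 6.49e-06). Nr0b1 had 101.3 and 103.9 CPM against 178.9 and 145.9 CPM with the analog (log2 -0.66, SE 0.138, adjusted p = 0.00122), and Esrrb 415.6 and 459.8 CPM against 720.1 and 658.6 CPM (log2 -0.66, SE 0.068, adjusted p = 7.69e-09). Zfp42 was lower by -0.28 (adjusted p = 0.000367) and Prdm14 by -0.25 (adjusted p = 0.0156), while Klf2 was higher by 0.605 (adjusted p = 0.00371) and Dppa3 by 0.69 (adjusted p = 0.00159). Nanog had 637.1 and 636.9 CPM with BRM014, against 662.8 and 630.7 CPM with the analog, a difference of -0.02 with an interval of -0.16 to 0.11. Klf4 (interval -0.15 to 0.21) and Klf5 (interval -0.44 to 0.19) did not pass either. The call of Prdm14 was lost without BRM014 24 h replicate 1 or 2 or inactive 24 h replicate 2 (adjusted p = 0.0565 to 0.0825), and that of Klf2 without inactive 24 h replicate 2 (adjusted p = 0.0514).

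After 1 h of BRM014, washing the compound out for 30 min or 1 h moved 0 members past the threshold. Prdm14 had 35.4 and 36.6 CPM after 30 min of washout and 37.3 and 34.1 CPM after 1 h, against 30.3 and 31.1 CPM with BRM014 for 1 h. All 4 washout libraries lay above the BRM014 libraries and below the 1 h vehicle. The log2 differences were 0.21 (interval 0.05 to 0.38, adjusted p = 0.117) and 0.21 (interval 0.05 to 0.38, adjusted p = 0.157). Of all genes, 3.01% were lower and 2.88% higher after 30 min, and 0.959% lower and 3.02% higher after 1 h. Unadjusted p-values under 0.05 belonged to 3 members after 30 min (Prdm14, Nanog and Zfp42) and to 3 after 1 h (Prdm14, Klf4 and Tbx3). DESeq2 called Zfp42 after 30 min (0.19, adjusted p = 0.0282) and Klf4 (0.30, adjusted p = 0.0282) and Tbx3 (0.35, adjusted p = 0.0245) after 1 h. edgeR called Zfp42 without washout 30 min replicate 1 (adjusted p = 0.0164) and Tbx3 without BRM014 1 h replicate 2 (adjusted p = 0.0457). Summed over 7 of 9 primitive endoderm markers with counts (Pdgfra and Col4a1 at 0), these washouts stood at 1845 to 2051 CPM and 2161 to 2187 CPM, against 1379 to 1383 CPM with BRM014 for 1 h, and the part of that shift in the members' values was not tested.

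**Figure D2:**
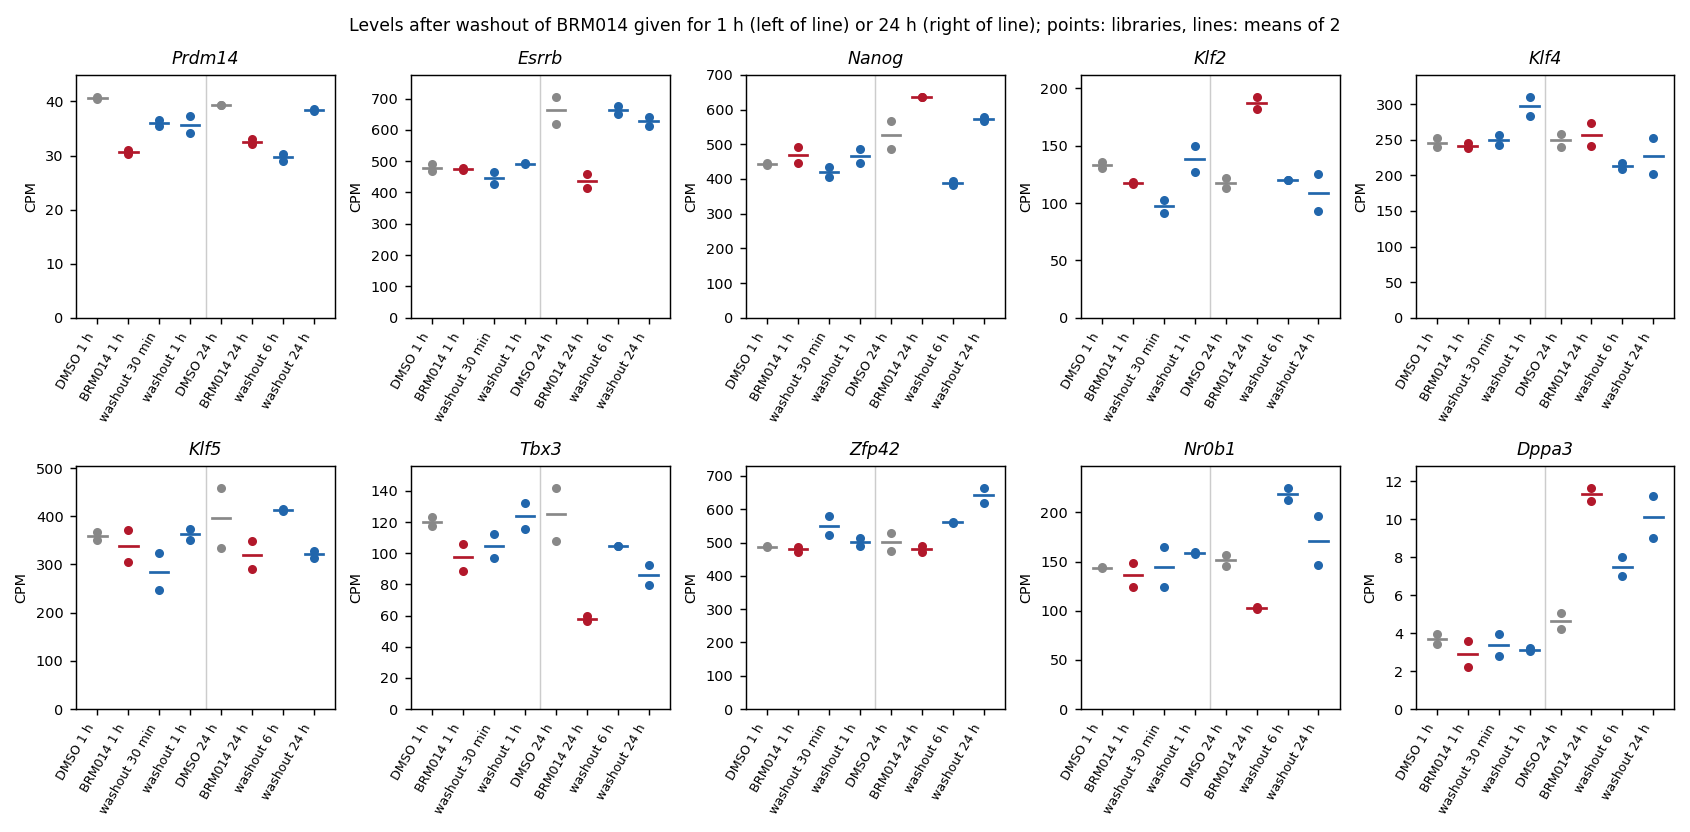
CPM of the 10 regulators in the first batch (y axis from 0) by group (x axis), before and after BRM014 was washed out, following 1 h of compound left of the grey line and 24 h right of it; points are libraries and short lines are means of 2. Nr0b1 reaches 218.6 CPM after 6 h of washout, Nanog drops to 388.4 CPM there, and Dppa3 is still at 10.1 CPM after 24 h of washout.

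After 24 h of BRM014, 6 h of washout changed 9 of 10 members against BRM014 for 24 h, 4 lower and 5 higher, beside 23.4% of genes lower and 25.3% higher. The 5 that rose were Nr0b1, Tbx3, Esrrb, Klf5 and Zfp42. Nr0b1 had 224.9 and 212.3 CPM after washout, against 101.3 and 103.9 CPM with BRM014 (log2 1.097, SE 0.138, adjusted p = 5.43e-06). Tbx3 had 104.8 and 104.4 CPM against 56.3 and 59.4 CPM (log2 0.86, SE 0.110, adjusted p = 1.13e-06), and Esrrb 674.6 and 650.2 CPM against 415.6 and 459.8 CPM (log2 0.60, SE 0.068, adjusted p = 2.08e-08). Klf5 rose by 0.38 (adjusted p = 0.0462) and Zfp42 by 0.23 (adjusted p = 0.00193).

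The 4 that fell in the same 6 h were Nanog, Klf2, Dppa3 and Klf4. Nanog had 395.1 and 381.7 CPM after washout, against 637.1 and 636.9 CPM with BRM014 (log2 -0.71, SE 0.066, adjusted p = 5.06e-10), and Klf2 119.7 and 120.4 CPM against 181.9 and 192.7 CPM (log2 -0.64, SE 0.145, adjusted p = 0.00174). Dppa3 was lower by -0.58 (adjusted p = 0.00464) and Klf4 by -0.27 (adjusted p = 0.0158), and Prdm14 was the 1 member not called (-0.13, interval -0.30 to 0.04). Single libraries decided 3 of these calls. Klf5 was lost without BRM014 24 h replicate 1 or washout 6 h replicate 1 or 2 (adjusted p = 0.121 to 0.294), Klf4 without BRM014 24 h replicate 2 or washout 6 h replicate 2 (adjusted p = 0.0984 to 0.192), and Dppa3 without washout 6 h replicate 2 (adjusted p = 0.0585).

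Markers of other cell types moved with the 6 h washout. The 5 mesoderm markers summed to 44.93 to 48.08 CPM after 6 h of washout, against 5.43 to 5.944 CPM with BRM014 for 24 h and 4.569 to 4.579 CPM with DMSO for 24 h. Of 4 neural markers, 3 had counts (Sox1 at 0) and summed to 135.8 to 144.4 CPM after washout, against 45.73 to 46.48 CPM with BRM014 and 60.38 to 60.89 CPM with DMSO. Of 7 trophoblast markers, 6 had counts (Gata3 at 0), with 94.17 to 98.55 CPM against 46.38 to 46.99 CPM with BRM014 and 67.07 to 67.29 CPM with DMSO. Of 6 fibroblast markers, 4 had counts (Col1a2 and Twist2 at 0), with 10.53 to 13.04 CPM against 1.245 to 2.032 CPM with BRM014 and 8.207 to 9.76 CPM with DMSO. After 24 h of washout mesoderm stood at 4.01 to 4.229 CPM, neural at 54.59 to 54.71 CPM and trophoblast at 77.97 to 89.78 CPM. The part of these shifts in the members' values was not tested.

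Set against DMSO for 24 h, the 6 h washout left 3 members lower and 3 higher beside 19% and 20.8% of genes. That vehicle was not washed and ended at 24 h, before the washout began in the treated cells. The part of time and of washing in these differences was not tested. Nr0b1 was at 144.5% of that vehicle (log2 0.535, SE 0.136, adjusted p = 0.00497) and Dppa3 at 161.8% (0.69, adjusted p = 0.00321), while Nanog was at 73.9% (-0.43, SE 0.065, adjusted p = 5.42e-06) and Prdm14 at 75.4% (-0.40, SE 0.080, adjusted p = 2e-04). Esrrb (0.005, interval -0.13 to 0.14) was at 100.1%, and Klf2 and Klf5 also overlapped the vehicle. Zfp42 (0.16, adjusted p = 0.0274) and Klf4 (-0.22, adjusted p = 0.0479) passed narrowly. Tbx3 lay just outside by edgeR (-0.25, interval -0.47 to -0.03, adjusted p = 0.0651). It passed by DESeq2 (adjusted p = 0.0445) and, by edgeR, without the filter on low counts (adjusted p = 0.00216). Without DMSO 24 h replicate 2 or without washout 6 h replicate 1, 3 members passed: Nr0b1 was lost in the first case (adjusted p = 0.0718), Dppa3 in the other (adjusted p = 0.0541), and Zfp42 and Klf4 in both. Without washout 6 h replicate 2, Zfp42 and Klf4 were lost as well, and without DMSO 24 h replicate 1 Klf4 was lost and Tbx3 gained (-0.44, adjusted p = 0.00101).

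By 24 h of washout, 3 members differed from DMSO for 24 h, 1 lower and 2 higher, beside 8.52% and 8.91% of genes. This vehicle, too, was neither washed nor matched in total time, and the part of both in the differences was not tested. Tbx3 had 92.7 and 79.9 CPM, against 108.0 and 141.9 CPM with DMSO (log2 -0.53, SE 0.107, adjusted p = 0.0014, or 0.0514 without DMSO 24 h replicate 2). Zfp42 had 618.6 and 664.0 CPM, against 528.8 and 475.5 CPM (log2 0.36, SE 0.059, adjusted p = 7.17e-05), and Dppa3 11.2 and 8.998 CPM, against 5.08 and 4.21 CPM (log2 1.12, SE 0.178, adjusted p = 4.49e-05). All 3 lay outside the vehicle libraries. Prdm14 (-0.03, interval -0.19 to 0.13), Esrrb (-0.075, interval -0.21 to 0.06) and Nanog (0.13, interval -0.003 to 0.26) did not pass. Klf5 (-0.30, interval -0.61 to 0.02) did not pass either, but did without the filter on low counts (-0.31, adjusted p = 0.000118). Without 1 library Klf4 (washout 24 h replicate 1, adjusted p = 0.0303), Klf5 (DMSO 24 h replicate 1, adjusted p = 0.026) or Nanog (DMSO 24 h replicate 2, adjusted p = 0.0206) passed.

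Between 6 h and 24 h of washout, 4 members rose and 2 fell, beside 19% of genes that rose and 21.3% that fell. Nanog rose by 0.56 (SE 0.065, adjusted p = 8e-08) and Prdm14 by 0.37 (SE 0.080, adjusted p = 0.000454), and neither then differed from DMSO for 24 h by the test. Zfp42 rose by 0.19 (adjusted p = 0.00988) and Dppa3 by 0.42 (adjusted p = 0.0436), while Tbx3 fell by 0.28 (adjusted p = 0.0434) and Nr0b1 by 0.35 (adjusted p = 0.0489). Klf5 lay just outside the threshold (-0.36, interval -0.67 to -0.05, adjusted p = 0.0635). It passed without the filter on low counts (adjusted p = 3.86e-06) and with only the libraries compared in the fit (adjusted p = 3.93e-05). Without washout 6 h replicate 1 or 2 the count was 3, with Dppa3, Tbx3 and Nr0b1 lost. Without washout 24 h replicate 2, Nr0b1, Tbx3 and Zfp42 were lost and Klf4 gained. Dppa3 was lost without washout 24 h replicate 1. Of 7 markers of 2-cell-like cells, the 5 with counts (Tcstv1 and Usp17lc at 0) summed to 41.7 to 48.4 CPM after 6 h and 95.04 to 95.3 CPM after 24 h of washout, against 10.6 to 13.2 CPM with BRM014 for 24 h and 12.2 to 12.8 CPM with DMSO for 24 h. The part of that shift in Dppa3, Zfp42 and the other members was not tested.

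The Ino80ko and Snf2hko lines already differed from wild type before BRM014. With DMSO, Ino80ko had 2 members lower and 6 higher than wild type, beside 22.9% and 22.1% of 13130 genes. Klf5 had 1039 and 897.1 CPM in Ino80ko, against 397.4 and 438.7 CPM in wild type (log2 1.215, SE 0.118, adjusted p = 1.07e-06), and Tbx3 175.9 and 173.6 CPM, against 86.4 and 88.7 CPM (log2 1.002, SE 0.104, adjusted p = 5.95e-07). Dppa3 had 0.91 and 0.86 CPM, against 9.21 and 7.94 CPM in wild type (log2 -3.27, SE 0.185, adjusted p = 7.86e-11), and Klf2 57.9 and 55.9 CPM, against 116.1 and 122.2 CPM (log2 -1.06, SE 0.087, adjusted p = 1.19e-08). Nr0b1 (0.53), Esrrb (0.475), Nanog (0.34) and Klf4 (0.33) were the other members that rose.

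Snf2hko with DMSO had 4 members lower and 2 higher than wild type, beside 27.7% and 28.9% of genes. Tbx3 was higher here too, with 208.6 and 186.9 CPM, against 86.4 and 88.7 CPM in wild type (log2 1.17, SE 0.104, adjusted p = 4.16e-08), and Klf4 by 0.31 (adjusted p = 0.00165). Dppa3 had 1.63 and 1.28 CPM, against 9.21 and 7.94 CPM in wild type (log2 -2.56, SE 0.168, adjusted p = 2.01e-10), and Klf2 65.4 and 63.3 CPM, against 116.1 and 122.2 CPM (log2 -0.895, SE 0.087, adjusted p = 4.86e-08). Nanog was -0.25 (adjusted p = 0.00164) and Nr0b1 -0.36 (adjusted p = 0.00299, or 0.0642 without DMSO 24 h Snf2hko replicate 1). Klf5, which was higher in Ino80ko, did not pass here (-0.01, interval -0.26 to 0.24).

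**Figure D3:**
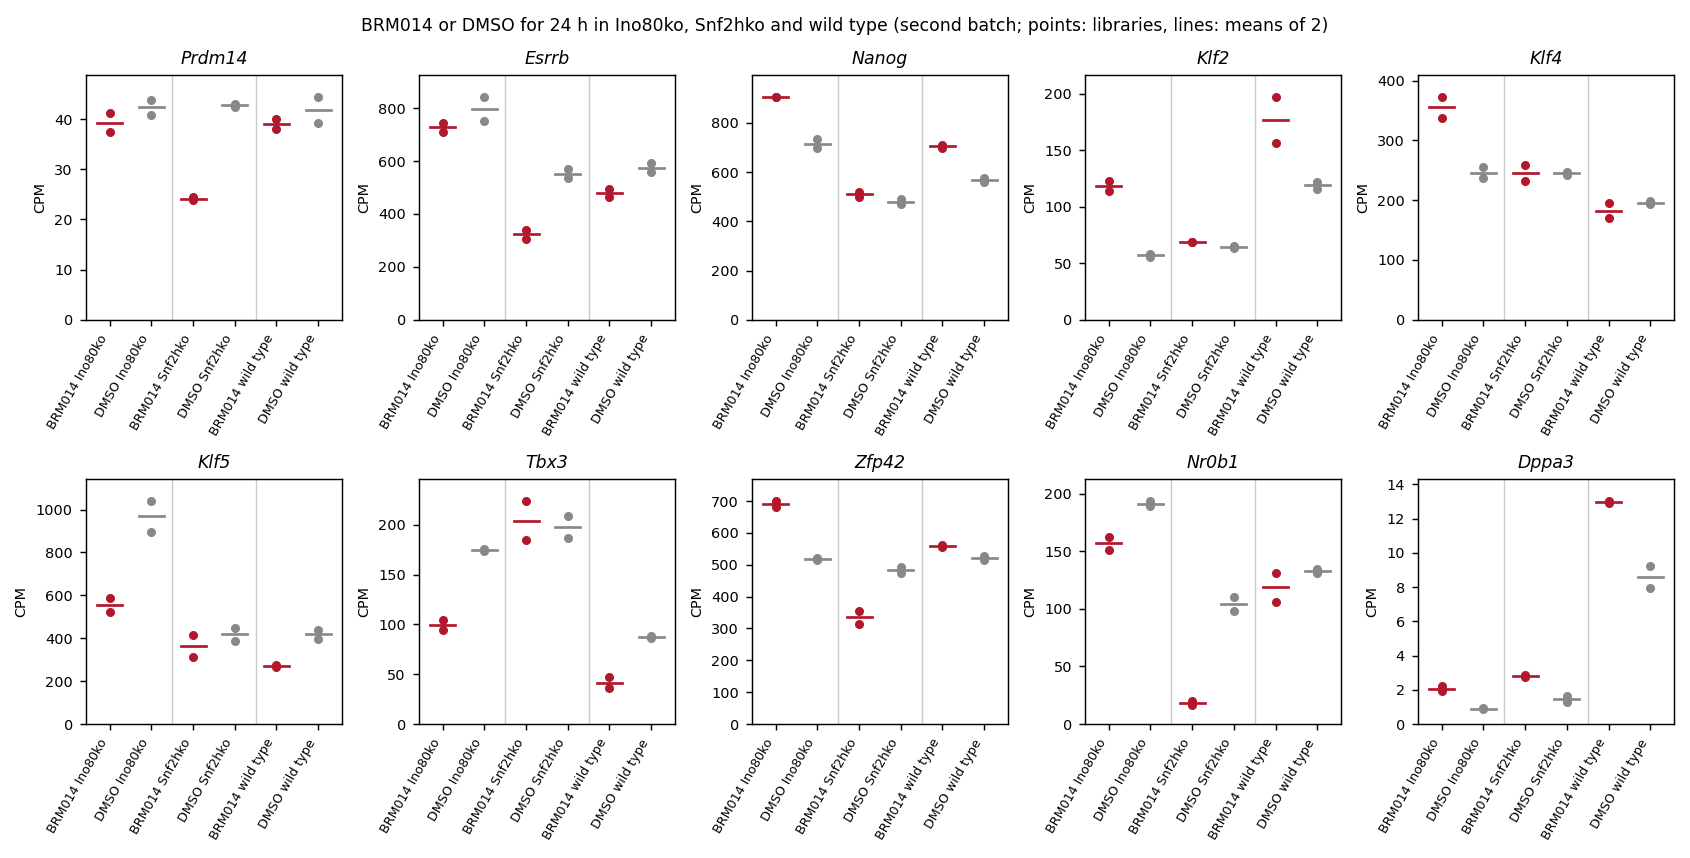
CPM of the 10 regulators in the second batch (y axis from 0) with BRM014 (red) or DMSO (grey) for 24 h in Ino80ko, Snf2hko and wild-type cells (x axis); points are libraries and short lines are means of 2. Nr0b1 is at 18.0 CPM in Snf2hko with BRM014, against 104.2 CPM in Snf2hko with DMSO, and Klf5 is at 968.2 CPM in Ino80ko with DMSO.

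In Ino80ko, BRM014 lowered 3 members and raised 5, beside 22.6% of genes lower and 22% higher. Klf2 had 113.9 and 122.8 CPM with BRM014, against 57.9 and 55.9 CPM with DMSO (log2 1.05, SE 0.087, adjusted p = 8.12e-09). Klf5 had 522.4 and 586.5 CPM, against 1039 and 897.1 CPM (log2 -0.805, SE 0.117, adjusted p = 4.93e-05), and Tbx3 94.7 and 104.8 CPM, against 175.9 and 173.6 CPM (log2 -0.81, SE 0.104, adjusted p = 5.17e-06). Dppa3 rose by 1.21, Klf4 by 0.53, Zfp42 by 0.41 and Nanog by 0.34, and Nr0b1 was -0.29 (adjusted p = 0.0157, or 0.0602 to 0.143 without BRM014 24 h Ino80ko replicate 1 or DMSO 24 h Ino80ko replicate 1 or 2). The difference in response between Ino80ko and wild type passed for 3 members, 0 lower and 3 higher, beside 4.87% and 4.16% of genes: Klf4 (0.63, SE 0.108, adjusted p = 0.000745), Klf2 (0.48, SE 0.121, adjusted p = 0.0163) and Zfp42 (0.31, SE 0.093, adjusted p = 0.04). Zfp42 was lost without any 1 of the 8 libraries (adjusted p = 0.0544 to 0.151), and Klf2 also without BRM014 24 h Ino80ko replicate 2, DMSO 24 h Ino80ko replicate 2 or BRM014 24 h replicate 4, which left a count of 1.

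In Snf2hko, BRM014 lowered 4 members and raised 1, beside 28.2% of genes lower and 28.7% higher. Nr0b1 had 16.3 and 19.8 CPM with BRM014, against 98.4 and 110.0 CPM with DMSO (log2 -2.52, SE 0.103, adjusted p = 2.73e-13). Prdm14 had 24.4 and 23.9 CPM, against 42.5 and 43.0 CPM (log2 -0.82, SE 0.087, adjusted p = 1.77e-07). Esrrb had 339.3 and 306.2 CPM, against 535.0 and 568.8 CPM (log2 -0.77, SE 0.074, adjusted p = 4.85e-08), and Zfp42 314.1 and 356.2 CPM, against 474.8 and 493.6 CPM (log2 -0.52, SE 0.066, adjusted p = 1.69e-06). Dppa3 was the 1 member that rose (0.95, adjusted p = 0.00025). Tbx3, lowered by BRM014 in wild type and Ino80ko, had 223.9 and 184.4 CPM with BRM014, against 208.6 and 186.9 CPM with DMSO (0.05, interval -0.16 to 0.27), and Klf5 passed without BRM014 24 h Snf2hko replicate 1 (-0.41, adjusted p = 0.00267) and without the filter on low counts (-0.22, adjusted p = 0.00845).

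The difference in response between Snf2hko and wild type passed for 6 members, 5 lower and 1 higher, beside 16.8% of genes lower and 15.8% higher. The members' median was -0.34, against 0.01 over all genes. Nr0b1 differed by -2.36 (SE 0.138, adjusted p = 1.28e-09), Prdm14 by -0.715 (SE 0.122, adjusted p = 0.000185), Zfp42 by -0.62 (SE 0.093, adjusted p = 5.01e-05), Esrrb by -0.51 (SE 0.104, adjusted p = 0.00101) and Klf2 by -0.47 (SE 0.122, adjusted p = 0.00652), and Tbx3 by 1.12 (SE 0.149, adjusted p = 2.34e-05). The call of Klf2 was lost without BRM014 24 h replicate 3 (adjusted p = 0.0535). Nanog (-0.22, adjusted p = 0.0564) and Klf5 (0.43, adjusted p = 0.0607) lay just outside by edgeR and passed by DESeq2 (adjusted p = 0.0161 for Nanog and 0.034 for Klf5).

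Markers of primitive endoderm, the lineage that arises beside the epiblast, moved with the lines. In the second batch, the same 7 of 9 summed to 576.2 to 596.7 CPM in Ino80ko with BRM014 and 483.8 to 540.5 CPM in Ino80ko with DMSO. Snf2hko had 4865 to 5505 CPM with BRM014 and 3582 to 3718 CPM with DMSO. Wild type of that batch had 1498 to 1572 CPM with BRM014 and 1029 to 1100 CPM with DMSO. In the first batch, wild type overlapped, with 1497 to 1665 CPM with BRM014 for 24 h and 1406 to 1678 CPM with DMSO for 24 h. Lamb1 made up most of the sum, with a mean of 4060 CPM in Snf2hko with BRM014 and 2955 CPM in Snf2hko with DMSO, and Gata4 had 353.5 and 224.3 CPM there. Its part in the members' values in the lines was not tested. Over all 38 libraries the other marker lists summed to 1.22 to 13.04 CPM for fibroblast, 21.5 to 98.5 CPM for trophoblast, 2.64 to 48.1 CPM for mesoderm and 38.8 to 144.4 CPM for neural genes. With DMSO, trophoblast markers summed to 21.46 to 22.17 CPM in Ino80ko, 35.7 to 37.38 in Snf2hko and 78.45 to 82.68 in wild type. The 2-cell-like markers summed to 1.723 to 3.104, 6.715 to 7.068 and 7.614 to 7.777 CPM in the same order. Their part in the members' values was not tested.

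**Figure D4:**
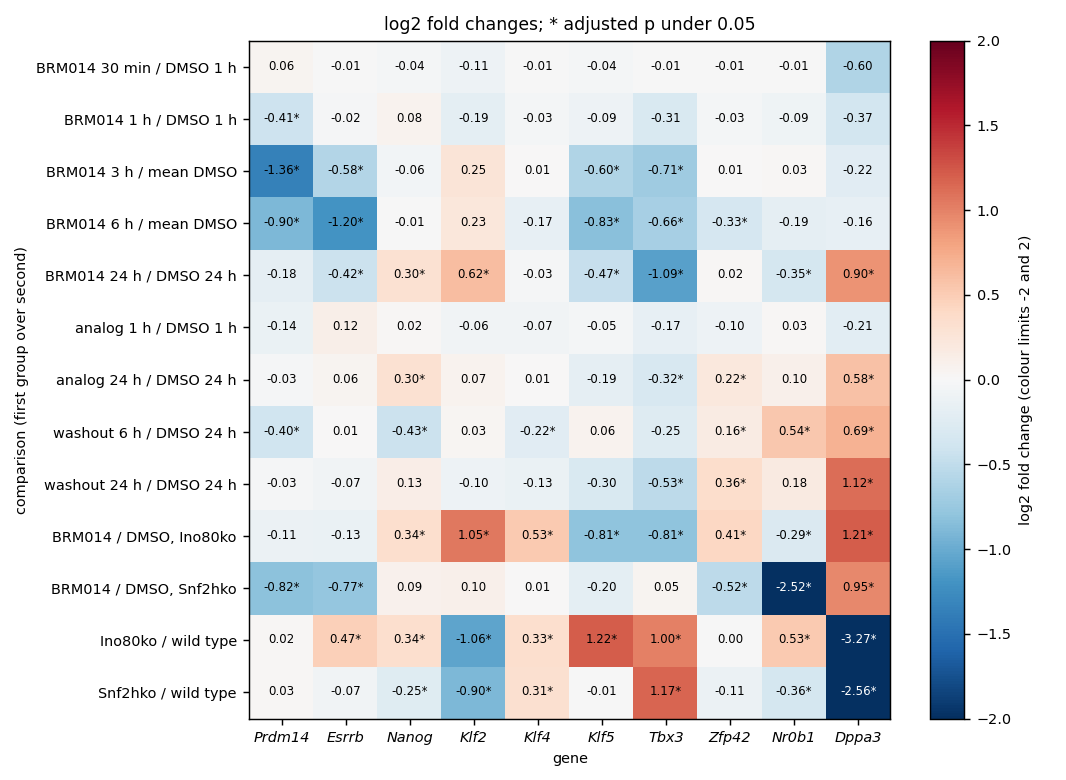
Log2 fold changes of the 10 regulators (columns) in 13 comparisons (rows, first group over second), with an asterisk at an adjusted p under 0.05 and colours limited to -2 and 2. The early falls gather in Prdm14, Esrrb, Klf5 and Tbx3, and the strongest values are those of Dppa3 in Ino80ko (-3.27) and Snf2hko (-2.56) with DMSO, then Nr0b1 with BRM014 in Snf2hko (-2.52).

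Genes around the regulators were read from 4 lists. The lists, too, were chosen with earlier results of these data known, so their counts are descriptions. Of 16 other naive genes, 13 had counts and were tested (Tfcp2l1, Spp1 and Jam2 at 0). With BRM014 8 were lower and 2 higher at 3 h, beside 15.7% and 15.5% of all genes, and 9 lower and 2 higher at 6 h, beside 23.5% and 24.9% (median -0.48, against 0 over all genes). At 24 h against DMSO in both batches 6 were lower and 5 higher, beside 24.8% in each direction. Bmp4, a ligand that maintains self-renewal with LIF, was -1.79 (SE 0.078, adjusted p = 2.06e-11) at 24 h, the small GTPase Mras was -1.59 (SE 0.084, adjusted p = 2.14e-10) and Dppa2, which primes bivalent promoters, was 0.98 (SE 0.058, adjusted p = 9.38e-10). In the difference of response between Snf2hko and wild type 9 of the 13 were lower and 0 higher, beside 16.8% and 15.8% of genes, at a median of -0.46, against 0.01 over all genes.

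Of 12 genes of the LIF and STAT3 pathway, 10 were tested (Jak1 and Ptpn11 at 0), with 5 lower and 1 higher at 6 h, beside 23.5% and 24.9% of genes, and 3 lower and 3 higher at 24 h, beside 24.8% in each direction. Jak2, the kinase, was 1.16 (SE 0.096, adjusted p = 4.12e-08), Pim3, a STAT3 target kinase, -0.58 (SE 0.061, adjusted p = 6.68e-07) and Stat3 itself -0.47 (SE 0.055, adjusted p = 2.71e-06) at 24 h. Of 12 core pluripotency genes, 9 were tested (Sox2, Tcf7l1 and Foxd3 at 0), and 1 was lower and 4 higher at 24 h, beside the same 24.8%. The corepressor Trim28 was 0.64 (adjusted p = 3.54e-07) and Rif1, a replication timing factor, 0.56 (adjusted p = 4.66e-06). Pou5f1, the gene of OCT4, lay at -0.13 (adjusted p = 0.114).

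Of 12 formative and primed genes, 7 were tested (Otx2, Pou3f1, Sox3, Lef1 and Sox4 at 0), and 1 was lower and 5 higher at 24 h, beside 24.8% of genes in each direction. Fgf5, the ligand typical of the primed epiblast, had 3.71 to 4.93 CPM with BRM014, against 0.52 to 0.68 CPM with DMSO, in the first batch (2.19 over both batches, SE 0.252, adjusted p = 2.01e-06). Nodal, which sustains the epiblast, was 0.76 (adjusted p = 1.11e-07) and the methyltransferase Dnmt3a -1.12 (adjusted p = 2.57e-09). The response differed between the batches for 2 of the 7, lower in the second, and 0 were higher. Of all genes, 1.48% were lower and 1.98% higher. The median difference (log2) of the 7 was -0.68, against 0.007 over all genes. In Ino80ko with DMSO all 7 were lower than in wild type, beside 22.9% of genes lower and 22.1% higher, at a median of -1.22 against 0.004 over all genes.

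Across the 13 group means of the first batch, the members followed each other loosely. Esrrb and Klf5 were the closest pair (Pearson r = 0.865), and Klf2 and Tbx3 the most opposed (r = -0.599). The gene most like Prdm14 was Zkscan7 (r = 0.902), that most like Esrrb was Cdk18 (0.971), Nanog had Tada2a (0.987), Klf2 had Wiz (0.909), Klf4 had Ankfy1 (0.861) and Klf5 had D16Ertd472e (0.947), with L1td1, an RNA-binding protein of embryonic stem cells, next at 0.925. Tbx3 had Pmepa1 (0.955), then Fgf3 (0.923), Zfp42 had Rab15 (0.906), Nr0b1 had Ptpn3 (0.935) and Dppa3 had Lamtor2 (0.95). These are descriptions over 13 means that share vehicles, batch and normalisation.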

How the data were processed

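Stranded total RNA libraries of mouse embryonic stem cells were deposited by the authors as raw counts per gene, 1 column for each of 38 samples, with exon widths and no normalization. The notes of the submitters name bcl2fastq (2.17) for base calls, STAR for alignment and GRCm38 (mm10), per the submitters' processing notes; for the counting program, its annotation and its strand setting, the entry is: not given in the sources used here. From the deposited counts, CPM with TMM factors over all libraries gave levels, and edgeR 4.0.16 (R 4.3.3, limma 3.58.1) gave quasi-likelihood tests with Benjamini-Hochberg adjustment over all genes after a filter at a minimum count of 10 and a minimum total of 15. The fits were the 26 libraries of the first batch (12517 genes), the 12 of the second (13130 genes), and the 8 wild-type 24 h libraries of both with batch as a term (11787 genes). Their spread was a biological coefficient of variation of 6.15%, 6.63% and 9.16%, and intervals are 95%. Alternatives were RLE size factors, library totals, no filter, DESeq2 1.42.0, a replicate block, fits of the compared libraries alone, single vehicle times or batches, and each library left out. All 10 members are named; from each list the 3 called genes with the smallest adjusted p at 24 h, and for each member the genes with the highest correlation, were named by rule, with Pou5f1 added after its value was seen; 1 gene that the rule names is not reported here. The members and the lists were chosen with earlier results of these data known. The script was tested on simulated data. Replicates were compared: 0 of 19 pairs were identical, and all differed by more than sampling noise (chi-square 1.98 to 23.4 per degree of freedom). Transcripts at least 90% identical to a member over 250 bases or more belong to Dppa3-ps, Gm47576, Gm6007 and Zfp42-ps1, and those and the overlapping antisense Tbx3os1 had 0 counts, so Dppa3, Klf5 and Zfp42 hold any shared reads that were counted and are uncertain to that extent.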

Additional observations from a re-analysis of the deposited data

Results flagged for a closer look

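In wild-type cells with BRM014 for 24 h, 1 of the 4 Nr0b1 libraries stood apart: 101.3, 103.9, 131.0 and 106.1 CPM, with the gap of the highest to the next at 0.836 of the range. In wild-type cells with DMSO for 24 h, 1 of the 4 Prdm14 libraries stood apart: 39.4, 39.3, 44.5 and 39.2 CPM, with a gap of 0.962 of the range. Both exceed Dixon's 95% critical value for 4 samples, and both are replicate 3, of the second batch. Chance gives such a gap in about 1 in 20 groups, and 10 members were looked at in 2 such groups.

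The response to 24 h of BRM014 differed between a knockout line and wild type by the interaction test for these members. In Ino80ko the log2 difference was 0.482 for Klf2, 0.634 for Klf4 and 0.314 for Zfp42. In Snf2hko it was -0.715 for Prdm14, -0.507 for Esrrb, -0.467 for Klf2, 1.121 for Tbx3, -0.624 for Zfp42 and -2.359 for Nr0b1. The calls of Zfp42 and Klf2 in Ino80ko and of Klf2 in Snf2hko were lost without single libraries, as given above. The sum of primitive endoderm markers differs between these lines too, as given above.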

How the results depend on the processing

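No member's log2 change reversed to a call of the other sign under any alternative run. With RLE size factors the number of members called moved by over 1.5 times after 30 min of washout (1 in place of 0), and with DESeq2 after 30 min (1) and 1 h (2) of washout, where 0 were called. Smaller moves were, with RLE, 8 in place of 7 for BRM014 24 h against 6 h, 4 in place of 6 for washout 24 h against 6 h and 7 in place of 6 for the Snf2hko interaction, and with DESeq2 9, 5 and 8 for the same comparisons and 7 in place of 6 for washout 6 h against DMSO. Without the filter on low counts, 3 were called after 30 min of washout, 2 after 1 h of washout (0 each with the filter), 2 at 1 h of BRM014 (1 with it), 8 at 6 h of BRM014 (5 with it) and 2 for the difference between batches (0 with it). With only the libraries compared, 8 were called at 6 h of BRM014, 0 for the analog at 24 h (4 before) and 1 for DMSO 24 h against 1 h (2 before). The replicate block raised the count for the difference between batches to 2 (Esrrb and Nr0b1) and left the other counts within 1.5 times. Replicate numbers did not pair the libraries: deviations of same-numbered libraries correlated at -0.21 to 0.26 over 78 pairs of groups in the first batch and at -0.18 to 0.21 over 15 in the second. Leaving out 1 library at a time gave 0 to 0 members at 1 h of BRM014, 1 to 2 for DMSO 24 h against 1 h, 1 to 4 for the analog at 24 h, 0 to 2 for the difference between batches, 1 to 2 for the Ino80ko interaction, 0 to 1 after 30 min and 0 to 1 after 1 h of washout, 3 to 5 for washout 24 h against 6 h, and 3 to 6 for washout 6 h against DMSO. Of 1160 member values so refitted, 1080 kept their side of the threshold, 62 lost a call and 18 gained one. The single vehicle times, the single batches and library totals moved no count past 1.5 times. The cause of these shifts was not tested. Of calls named in the text, the block ended those of Klf5 at 6 h of washout against BRM014 (adjusted p = 0.06) and of Tbx3 (adjusted p = 0.0558) and Nr0b1 (adjusted p = 0.0588) between 6 h and 24 h of washout. RLE ended the calls of Tbx3 (0.0519) and Nr0b1 (0.0619) in that last comparison, and DESeq2 that of Dppa3 (0.0962). Library totals ended those of Nr0b1 there (0.0583), of Klf4 at 6 h of washout against BRM014 (0.0567) and DMSO (0.0821), and of Zfp42 in the Ino80ko interaction (0.0909). Without the filter, Prdm14 against the analog (0.0774) and Zfp42 at 6 h of washout against DMSO (0.109) were lost. With only the libraries compared, Klf2 against the analog (0.197), Zfp42 at 6 h of washout against DMSO (0.154), Nr0b1 between the washouts (0.268), Nanog (0.0623), Tbx3 (0.0991), Zfp42 (0.168) and Dppa3 (0.0681) with the analog at 24 h, and Nanog between the vehicle times (0.108) were lost; each value in these sentences is an adjusted p. With 2 libraries a group small changes could not be seen, and Dppa3 is limited further by its low counts.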
